A study of Mus musculus with 8 samples.

Results

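The genes described here drive DNA replication and mitosis. They are a list of 43 symbols that runs from the loading of the replicative helicase to the spindle checkpoint and cytokinesis. Each gene was read from the probe set that carries its symbol alone in the platform annotation and has the highest mean over the 8 arrays. By that rule 42 of the 43 genes were measured, among 18194 genes on the array, and Ccnb1 (cyclin B1) was not analysed here.

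The arrays come from 7438 cells, a mouse mammary line in which a GFP-tagged glucocorticoid receptor (GFP-GR) and a Cherry-tagged estrogen receptor (Cherry-ER) are driven by a tet-regulated promoter. In all 4 groups tetracycline had been withdrawn the day before, so every sample, controls included, carried both induced fusion proteins, and all cells were in charcoal-dextran serum, which is depleted of steroids. The groups were Untreated, Dex (dexamethasone, a synthetic glucocorticoid, at 100 nM), E2 (estradiol at 100 nM) and Dex+E2 (the 2 hormones together at those doses), with hormones given for 2 h. Each group had 2 arrays. Nothing in the labels says that the 2 arrays of a group came from separate cultures, so the p-values reflect the scatter of these arrays alone, and that scatter may be technical. The arrays E2 replicate 2 and Dex+E2 replicate 1 have a description field that names a GR-ChIP experiment, but they were kept in the expression groups that their titles and treatment fields give.

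Replication origins are licensed in G1, when the origin recognition complex, Cdc6 and Cdt1 load the Mcm2-7 helicase. In S phase the GINS complex activates that helicase, Pcna tethers the polymerases, and ribonucleotide reductase, thymidylate synthase and thymidine kinase supply nucleotides. Cyclin E and E2F factors open S phase; cyclin B, Cdk1, Plk1 and the Aurora kinases drive mitosis under the spindle checkpoint. Many of these transcripts rise and fall with the cell cycle, E2F factors acting on the replication genes and the DREAM and B-Myb-FoxM1 complexes on the mitotic ones. Their levels in a dish therefore depend on how the cells are spread over the cycle, and in bulk RNA fewer cells in a phase and less RNA per cell cannot be told apart.

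The deposited values are log2 signals from robust multi-array averaging (RMA), which equalises the arrays and tends to compress the changes of dim probe sets. Array medians lay between 5.58 and 5.67, and the 2 arrays of a group correlated at 0.997 to 0.999 across genes. Differences are on the log2 scale, where 1 unit is a doubling, and each is given with its standard error from the limma model and a p-value adjusted by Benjamini-Hochberg over all 18194 genes. Of the known glucocorticoid targets, Per1 was 2.66 ± 0.13, Fkbp5 1.62 ± 0.11 and Tsc22d3 2.82 ± 0.23 higher with Dex than untreated. The housekeeping genes Actb, Gapdh and Tbp differed by 0.01, -0.10 and 0.05 with Dex. Tbp was less steady between the 2 Dex+E2 arrays, at 8.38 on replicate 1 and 7.80 on replicate 2. Among cell type markers, 10 mesenchymal genes lay between percentiles 37.3 (Thy1) and 99.9 (Vim, Col1a2) of all genes' mean levels, with a median of 92.5. The 10 epithelial genes lay between 2.14 (Cdh1) and 64.7 (Krt14), median 32.7, so the defining epithelial cadherin was near the bottom of the range. The 9 immune genes lay between 6.97 and 47.5, median 24.2, with the defining Ptprc at 8.98, and the 6 endothelial and adipose genes between 5.11 and 48.0, median 18.5.

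The replication and mitosis genes were strongly expressed in every group. By mean level, 41 of the 42 lay above the median of all genes and 39 lay in the top 25%. The exception to the first count was Tyms (thymidylate synthase), at percentile 43.3. The spread was small. Between the highest and the lowest of the 8 arrays the median gene of the list moved by 0.248 log2 units, against 0.308 for all genes. The pooled replicate SD had a median of 0.0733 for the list and 0.0957 for all genes.

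None of the 42 genes passed an adjusted p of 0.05 in limma in any comparison. For Dex against Untreated the count was 0 of 42, where 1.47% of all genes passed, and 1 of the 42 had an unadjusted p under 0.05. For E2 against Untreated it was 0 of 42 against 0.104% of all genes, with 7 of the 42 under an unadjusted 0.05. For Dex+E2 against Untreated it was 0 of 42 against 1.46%, with 3 under an unadjusted 0.05. The averaged effects used all 8 arrays. The mean effect of Dex over cells with and without E2 gave 0 of 42 against 2.22% of all genes, with 5 under an unadjusted 0.05, and the mean effect of E2 gave 0 of 42 against 0.192%, with 3. The interaction, which asks whether the Dex effect differed with E2 present, gave 0 of 42 against 0.0055%, with 1. The shares of all genes under an unadjusted 0.05 were 6.28%, 6.18%, 8.45%, 11.3%, 4.67% and 5.52% in the same order. A count of 0 of 42 is close to these background shares of calls, and by this test the list does not stand apart from other genes.

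The intervals show what size of change the scatter of these arrays left room for. That scatter may be technical, so they do not bound variation between cultures. The 95% limma intervals, not adjusted for the number of genes, lay wholly within 1 log2 unit either side of 0 for all 42 genes in all 6 comparisons. They lay within 0.5 log2 units for 41 of 42 genes with Dex, 39 with E2 and 40 with Dex+E2. The median distance from an estimate to its bound was 0.196 in these 3 comparisons. The lowest bound was -0.65 with Dex and -0.65 with Dex+E2, both for Cdc6, and the highest was 0.51 with E2, for Cenpe.

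**Figure D1:**
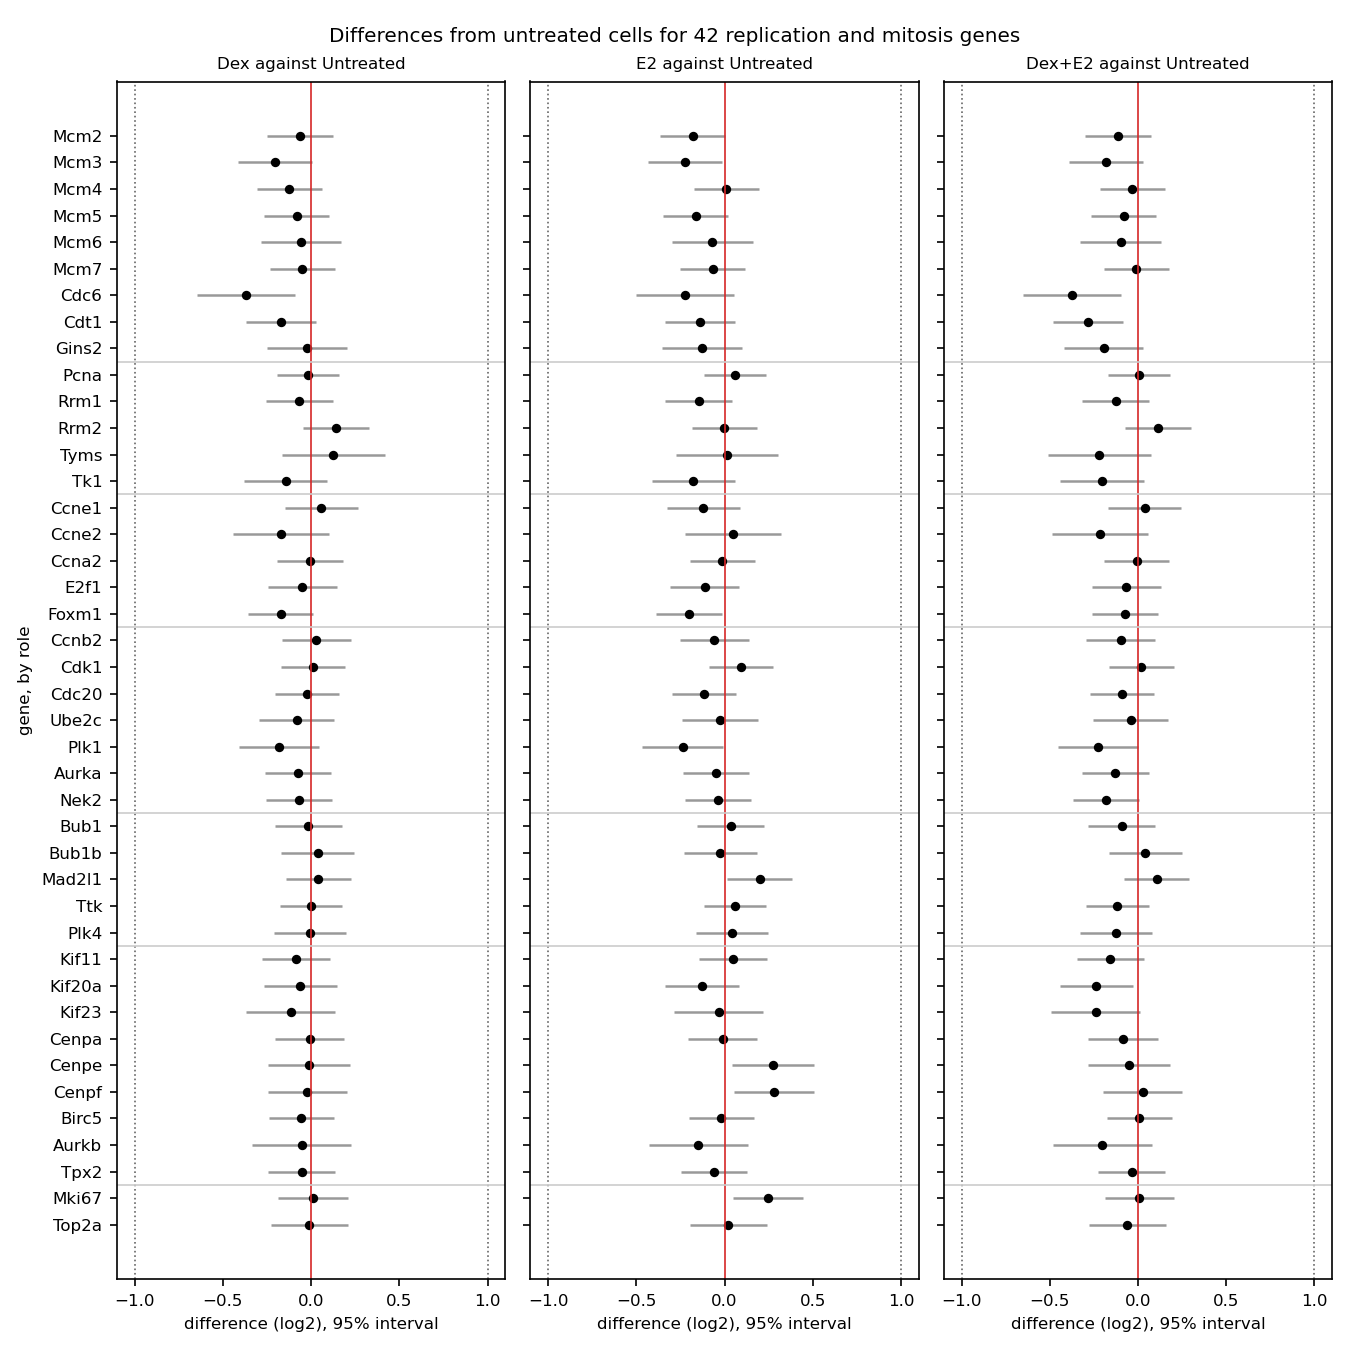
Difference from untreated cells (log2, x axis) for each of the 42 genes (y axis, grouped by role) with Dex, E2 and Dex+E2. Points are estimates and bars unadjusted 95% limma intervals; all bars lie between the dotted lines at -1 and 1, and no gene passed the adjusted threshold.

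The promoters of several of these genes are printed because they carry the sequence letters by which E2F and the mitotic complexes are known to act. RefSeq windows on GRCm38.p6, from 250 bases before to 50 after the start site and with the first window by coordinate taken per gene, matched 35 of the 43 symbols. Both strands were searched and matches were allowed to overlap. The letters searched for E2F were TTTCCCGC, TTTGGCGC and TTTGCCGC, those for the cell cycle homology region (CHR) were TTTGAA and TTTAAA, and those for the CCAAT box were CCAAT. Capitals mark the matches in the windows below, each printed 5′ to 3′ on the strand of its gene.
Cdc6 promoter: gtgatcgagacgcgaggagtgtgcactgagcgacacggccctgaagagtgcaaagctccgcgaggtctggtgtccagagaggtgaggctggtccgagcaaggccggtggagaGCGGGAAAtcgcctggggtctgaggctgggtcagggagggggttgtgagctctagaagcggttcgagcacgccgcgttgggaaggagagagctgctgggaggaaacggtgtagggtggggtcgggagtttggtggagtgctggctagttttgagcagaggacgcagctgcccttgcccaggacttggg
Cdt1 promoter: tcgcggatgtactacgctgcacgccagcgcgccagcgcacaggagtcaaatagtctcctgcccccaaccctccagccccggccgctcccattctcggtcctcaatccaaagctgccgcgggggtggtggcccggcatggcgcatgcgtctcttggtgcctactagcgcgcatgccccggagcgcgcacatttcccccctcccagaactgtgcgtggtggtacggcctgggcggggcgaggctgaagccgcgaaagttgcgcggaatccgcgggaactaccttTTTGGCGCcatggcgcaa
Birc5 promoter: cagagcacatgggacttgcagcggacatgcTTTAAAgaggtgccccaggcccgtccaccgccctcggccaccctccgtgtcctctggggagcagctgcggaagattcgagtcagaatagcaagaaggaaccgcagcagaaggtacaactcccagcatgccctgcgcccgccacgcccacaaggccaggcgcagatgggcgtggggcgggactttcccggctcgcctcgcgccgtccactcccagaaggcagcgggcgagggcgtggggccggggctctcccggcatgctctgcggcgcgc
Cdk1 promoter: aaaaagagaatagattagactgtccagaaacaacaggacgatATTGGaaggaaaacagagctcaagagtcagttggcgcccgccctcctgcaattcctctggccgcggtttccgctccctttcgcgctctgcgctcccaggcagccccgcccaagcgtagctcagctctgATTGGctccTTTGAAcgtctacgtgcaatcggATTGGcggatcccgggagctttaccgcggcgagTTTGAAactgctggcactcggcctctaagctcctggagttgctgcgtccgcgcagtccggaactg
These are chr11:98907901-98908200 (plus strand) for Cdc6, chr8:122567765-122568064 (plus) for Cdt1, chr11:117848987-117849286 (plus) for Birc5 and chr10:69352863-69353162 (minus) for Cdk1. In Cdc6 the capitals are an E2F match on the reverse strand beginning 138 bases before the start, and in Cdt1 an E2F match that begins at base 33 counted from the start. Birc5 holds 1 CHR match, 220 bases before the start. Cdk1 holds 3 CCAAT boxes in reverse orientation, 208, 80 and 48 bases before the start, and 2 CHR matches at 71 and 15 bases before it.

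Counts of the letters by role were as follows. A match to the E2F letters searched was present in 5 of 12 promoters of replication genes (41.7%) and in 0 of 21 of mitosis genes. It was also in 0 of the 2 promoters of S phase control genes, E2f1 and Ccne1. Of 27025 promoters of the same length, 2.06% held a match. The related letters TTTCGCGC were not searched, and they stand unmarked in the Cdk1 window printed above. The 0 of 21 therefore holds only for the letters searched. CHR letters were present in 18 of 21 mitosis promoters (85.7%) and 4 of 12 replication promoters (33.3%), against 27.9% of all. A CCAAT box was present in 18 of 21 (85.7%) and 8 of 12 (66.7%), against 37.8%. The palindromes known for the 2 receptors, AGAACA and TGTTCT 3 bases apart for the glucocorticoid receptor and GGTCA and TGACC 3 bases apart for the estrogen receptor, were each in 0 of the 35 windows. They were in 0 and 17 of all 27025, so windows this short say nothing about the receptors. A match describes letters, not an occupied site.

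Licensing and helicase genes were, as a group of 9, at a median slightly below the untreated level after every treatment, without any passing the test. The group's median difference was -0.08 with Dex, -0.14 with E2 and -0.11 with Dex+E2, and 9, 8 and 9 of the 9 genes lay below 0. Over all genes the medians were 0.0041, -0.011 and 0.0080, with 48.3%, 54.2% and 47.2% below 0. Over the genes in the top 25% of level they were -0.0085, 0.010 and -0.016, with 54.3%, 45.7% and 58.8% below 0. The 3 comparisons share the Untreated arrays, so their agreement in sign is not independent. Without Dex replicate 2 the Dex median of the group was -0.0050, with 5 of 9 below 0, and without Dex replicate 1 it was -0.16. The Dex+E2 median was -0.20 without Dex+E2 replicate 1 and -0.10 without replicate 2.

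Cdc6, the ATPase that helps load the helicase and whose E2F letters are printed above, had the largest differences from Untreated of the list with Dex and with Dex+E2. Its log2 values were 9.13 and 9.17 untreated, 8.88 and 8.68 with Dex, 8.96 and 8.89 with E2, and 8.97 and 8.57 with both. Both untreated arrays were above the other 6, and the Dex+E2 pair spanned the values of both single treatments. The difference was -0.37 ± 0.125 with Dex (adjusted p = 0.415), -0.22 ± 0.125 with E2 (adjusted p = 0.847) and -0.38 ± 0.125 with Dex+E2 (adjusted p = 0.338). The Dex+E2 value was -0.18 without Dex+E2 replicate 2 and -0.57 without replicate 1. Averaged over both E2 states, the Dex effect was -0.26 ± 0.0884 (adjusted p = 0.263), the smallest adjusted p in the list.

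Cdt1, the second loading factor and the target of geminin, gave 12.09 and 12.19 untreated, 12.02 and 11.91 with Dex, 12.03 and 11.97 with E2, and 11.93 and 11.78 with both hormones. Again the untreated arrays were the highest pair and the single lowest array was Dex+E2 replicate 2. The difference with both hormones was -0.28 ± 0.0893 (unadjusted p = 0.00940 in limma, adjusted p = 0.291), and the fold was 0.821. Without Dex+E2 replicate 1, limma called 2 of the 42 genes for Dex+E2, Cdc6 at -0.57 (adjusted p = 0.0229) and Tyms at -0.46 (adjusted p = 0.0296). That fit holds 1 Dex+E2 array, replicate 2, which had the lowest value of the 8 for many of these genes. Its spread comes from the other groups alone, so the lone array is assumed to vary as they do.

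Of the helicase subunits, Mcm2 gave 11.26 and 11.23 untreated, 11.25 and 11.11 with Dex, 11.09 and 11.04 with E2, and 11.14 and 11.13 with both. Its E2 and Dex+E2 arrays lay below both untreated arrays, by -0.18 ± 0.0832 for E2 (adjusted p = 0.827) and -0.11 ± 0.0832 for both. Mcm7 was among the steadiest genes, at 12.60 and 12.63 untreated, 12.62 and 12.50 with Dex, 12.59 and 12.51 with E2, and 12.62 and 12.59 with both, and its E2 pair alone lay below both untreated arrays. The other 5 genes of the group, the helicase subunits Mcm3 to Mcm6 and the GINS subunit Gins2, ran from -0.20 (Mcm3) to -0.023 (Gins2) with Dex, from -0.22 (Mcm3) to 0.0090 (Mcm4) with E2 and from -0.19 (Gins2) to -0.033 (Mcm4) with both.

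The clamp and nucleotide supply genes, 5 in number, did not share a direction. Pcna, the sliding clamp, read 12.96 and 13.03 untreated, 12.94 and 13.01 with Dex, 13.03 and 13.08 with E2, and 13.02 and 12.98 with both. Every treated group overlapped the untreated values, and the Pcna interval for Dex ran from -0.20 to 0.16. Rrm2, the regulated subunit of ribonucleotide reductase, was the main gene of the list on the higher side with Dex. Its values were 13.07 and 12.99 untreated, 13.18 and 13.15 with Dex, 13.03 and 13.03 with E2, and 13.21 and 13.07 with both. All 4 arrays with Dex were above the 4 without it, though Dex+E2 replicate 2 only just cleared Untreated replicate 1, and the mean Dex effect was 0.13 ± 0.0594 (unadjusted p = 0.0594 in limma, adjusted p = 0.476). Of the list 1 gene, Rrm2, was separated upward in this way and 1, Kif11, downward, against 3.34% and 3.4% of all genes. Rrm1, the large reductase subunit, was -0.066 with Dex, -0.15 with E2 and -0.13 with both.

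Tk1, the S phase thymidine kinase, gave 10.30 and 10.44 untreated, 10.26 and 10.19 with Dex, 10.28 and 10.11 with E2, and 10.29 and 10.04 with both. Both untreated arrays were the highest pair, yet the differences of -0.14 ± 0.106, -0.18 ± 0.106 and -0.20 ± 0.106 had adjusted p of 1, 0.855 and 0.683. Tyms was read from the brightest of its 4 probe sets, which still lay below the median of all genes (percentile 43.3). It gave 6.04 and 6.01 untreated, 6.17 and 6.14 with Dex, 6.03 and 6.04 with E2, and 6.05 and 5.57 with both. Its range was the widest of the list, 0.60, and 1 array, Dex+E2 replicate 2, set it. The difference with both hormones was -0.22 ± 0.131 (adjusted p = 0.738), and without that array it was 0.022.

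Among the S phase cyclins and transcription factors, Ccne1 and Ccne2, the cyclins E1 and E2 that activate Cdk2, had opposite signs. Ccne1 gave 8.95 and 8.89 untreated, 9.06 and 8.90 with Dex, 8.89 and 8.72 with E2, and 8.92 and 8.998 with both, a mean Dex effect of 0.11 ± 0.0663 (adjusted p = 0.603). Ccne2 gave 10.11 and 10.26 untreated, 10.09 and 9.94 with Dex, 10.21 and 10.25 with E2, and 10.16 and 9.78 with both, a mean Dex effect of -0.22 ± 0.0869 (adjusted p = 0.370). The groups of both genes overlapped in part, and whether the 2 cyclins differed from each other was not tested.

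Ccna2 (cyclin A2, active from S phase into mitosis) ran from 11.35 and 11.21 untreated to 11.27 and 11.28 with Dex, 11.31 and 11.23 with E2, and 11.29 and 11.26 with both. E2f1, an activator of the S phase programme, gave 9.01 and 8.85, then 8.94 and 8.82, 8.84 and 8.80, and 8.87 and 8.85 in the same order. For both, the differences from Untreated were smaller than the gap between the 2 untreated arrays. Foxm1, which activates the mitotic genes, gave 8.42 and 8.44 untreated, 8.28 and 8.24 with Dex, 8.19 and 8.28 with E2, and 8.43 and 8.30 with both. Each hormone alone lay below both untreated arrays (Dex -0.17 ± 0.0837, E2 -0.20 ± 0.0837), and the pair did not, giving an interaction of 0.30 ± 0.118 (unadjusted p = 0.0288 in limma, adjusted p = 0.852).

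Mitotic entry and exit genes, 7 in all, had median differences of -0.07 with Dex, -0.05 with E2 and -0.10 with Dex+E2. The Dex median was -0.022 without Dex replicate 2, the E2 median -0.015 without Untreated replicate 2, and the Dex+E2 median -0.17 without Dex+E2 replicate 1. Cdk1, the mitotic kinase, gave 11.34 and 11.39 untreated, 11.41 and 11.34 with Dex, 11.43 and 11.48 with E2, and 11.44 and 11.34 with both. E2 was the one group whose 2 Cdk1 arrays both exceeded the untreated ones, by 0.09 ± 0.082 (adjusted p = 0.908). Plk1, the Polo kinase of centrosome maturation and mitotic exit, gave 9.64 and 9.58 untreated, 9.51 and 9.35 with Dex, 9.49 and 9.26 with E2, and 9.45 and 9.32 with both. All 6 treated Plk1 arrays were below both untreated arrays, by -0.18, -0.24 and -0.23 (each ± 0.103, adjusted p = 0.976, 0.792 and 0.597). Nek2, a centrosome kinase, read 10.69 and 10.68 untreated, 10.65 and 10.58 with Dex, 10.68 and 10.61 with E2, and 10.57 and 10.44 with both, where both arrays were below the other 6. The other 4 genes, Ccnb2 (cyclin B2), the anaphase activator Cdc20, its partner ubiquitin conjugase Ube2c and the spindle pole kinase Aurka, ran from -0.13 (Aurka, both hormones) to 0.030 (Ccnb2, Dex).

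The checkpoint and centriole kinase group of 5 had medians of -0.0013 with Dex, 0.04 with E2 and -0.09 with Dex+E2, the last being -0.014 without Dex+E2 replicate 2. Mad2l1, the checkpoint protein that holds Cdc20 inactive, gave 12.18 and 12.26 untreated, 12.30 and 12.22 with Dex, 12.37 and 12.46 with E2, and 12.34 and 12.31 with both. The 4 arrays with E2 were all above the 4 without it, a mean E2 effect of 0.13 ± 0.0584 (unadjusted p = 0.0455 in limma, adjusted p = 0.993). Mad2l1 was the 1 gene of the list separated upward in this way, and Cdc20 and Kif20a were the 2 separated downward, against 1.26% and 1.29% of all genes. Ttk, the Mps1 kinase at the head of the checkpoint, gave 9.21 and 9.18 untreated, 9.24 and 9.15 with Dex, 9.25 and 9.25 with E2, and 9.11 and 9.04 with both, and its Dex+E2 arrays were the lowest pair. The checkpoint genes Bub1 and Bub1b and the centriole kinase Plk4 ran from -0.13 (Plk4, both hormones) to 0.044 (Plk4, E2).

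The 9 genes of the spindle, centromere and cytokinesis had a median E2 difference of -0.018, with 6 of 9 below 0. It was -0.05 with Dex and -0.08 with Dex+E2, where 9 and 7 of 9 lay below 0. The Dex median was -0.020 without Dex replicate 2 (6 of 9 below 0) and -0.099 without Dex replicate 1 (7 of 9). The Dex+E2 median was -0.052 without Dex+E2 replicate 2 (5 of 9) and -0.13 without Dex+E2 replicate 1 (9 of 9). The E2 median was 0.022 without E2 replicate 2 (4 of 9) and -0.057 without E2 replicate 1 (6 of 9). Of all genes 48.3%, 54.2% and 47.2% were below 0 with Dex, E2 and Dex+E2. Members of the group pointed both ways with E2, from -0.15 for the passenger kinase Aurkb and -0.13 for the motor Kif20a, through -0.010 for the centromeric histone Cenpa, to 0.28 for Cenpe and Cenpf. The last 2, and Mki67 of the proliferating chromatin group, had the smallest unadjusted p with E2, and none passed the test. Mki67, which encodes the Ki-67 antigen, gave 11.57 and 11.63 untreated, 11.60 and 11.62 with Dex, 11.86 and 11.83 with E2, and 11.70 and 11.51 with both. Cenpf, a kinetochore protein that accumulates in G2, gave 9.63 and 9.65 untreated, 9.52 and 9.71 with Dex, 9.95 and 9.89 with E2, and 9.78 and 9.55 with both. Cenpe, the kinetochore motor that aligns chromosomes, gave 9.50 and 9.71, 9.50 and 9.69, 9.86 and 9.91, and 9.63 and 9.47 in that order. In all 3 genes the E2 pair was above the other 6 arrays, and the other 3 groups overlapped.

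The E2 difference was 0.25 ± 0.0885 for Mki67, 0.28 ± 0.101 for Cenpf and 0.28 ± 0.105 for Cenpe, folds of 1.19, 1.22 and 1.21. The adjusted p was 0.724 for Mki67 and Cenpf and 0.738 for Cenpe, so none passed. With both hormones Mki67, Cenpf and Cenpe stood at 0.01, 0.03 and -0.05 against Untreated, and at 0.11, 0.14 and 0.027 without Dex+E2 replicate 2. The interaction was -0.25 ± 0.125 for Mki67, -0.23 ± 0.143 for Cenpf and -0.32 ± 0.148 for Cenpe (adjusted p = 0.852, 0.854 and 0.852), so none passed. Without Dex+E2 replicate 2 these interactions were -0.15, -0.12 and -0.24. Birc5, the survivin subunit of the chromosomal passenger complex, had the narrowest range of the list over the 8 arrays, 0.121. It gave 11.78 and 11.90 untreated, 11.79 and 11.78 with Dex, 11.86 and 11.78 with E2, and 11.87 and 11.83 with both. Top2a, the topoisomerase that untangles sister chromatids, gave 12.41 and 12.34, 12.45 and 12.29, 12.47 and 12.32, and 12.40 and 12.23 in the same order, with every group overlapping the untreated range. Kif11, the motor that separates the spindle poles, gave 9.51 and 9.39 untreated, 9.38 and 9.35 with Dex, 9.57 and 9.43 with E2, and 9.31 and 9.28 with both. Its 4 arrays with Dex were below the 4 without it, a mean Dex effect of -0.14 ± 0.061 (adjusted p = 0.403). Of the cytokinesis motors, Kif23 was -0.24 and Kif20a -0.24 ± 0.0938 with both hormones (smallest adjusted p = 0.509, for Kif20a). Without Dex+E2 replicate 2 they were -0.10 and -0.16.

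**Figure D2:**
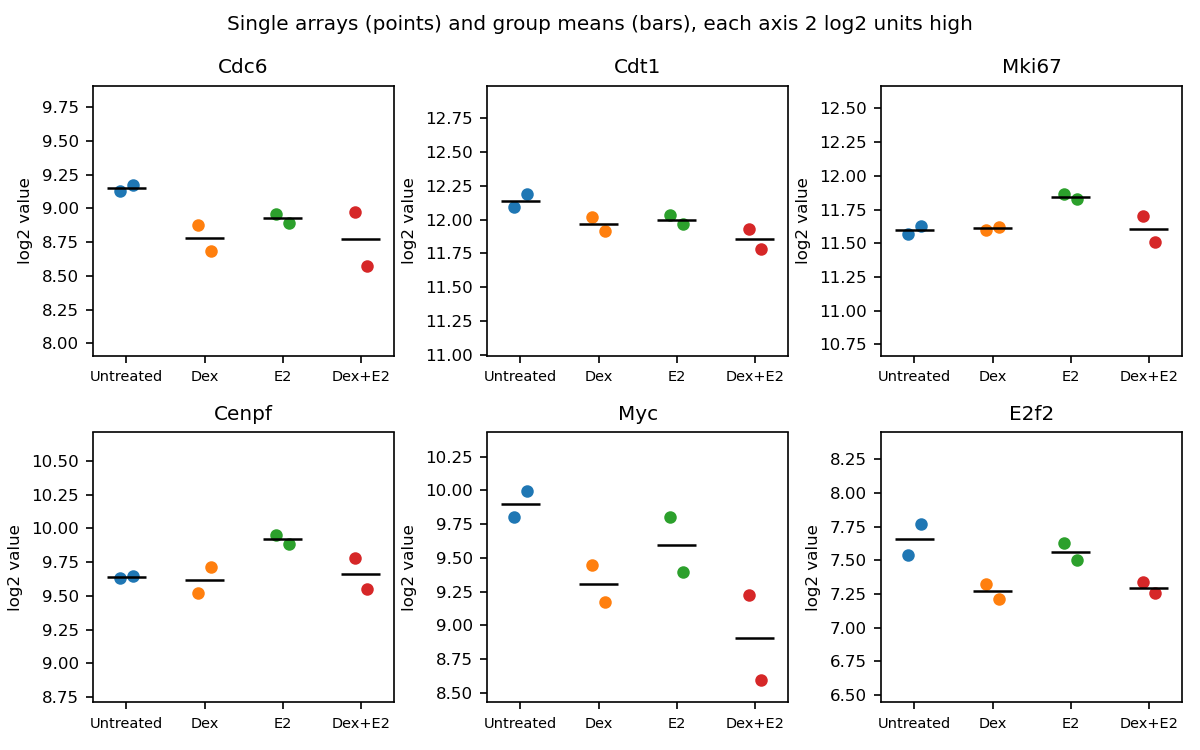
Log2 value (y axis) on each array for Cdc6, Cdt1, Mki67, Cenpf and, from the wider cell cycle lists, Myc and E2f2. Points are arrays and bars the means of 2; the Cdc6 and Cdt1 untreated pairs are the highest, the Mki67 and Cenpf E2 pairs are the highest, and every axis spans 2 log2 units.

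Genes were also counted whose 2 treated arrays did not overlap the 2 untreated ones. With Dex, 2 of the 42 genes (4.76%) were separated upward and 10 (23.8%) downward, where 17.9% and 16.8% of all genes were. With E2 the counts were 6 upward (14.3%) and 17 downward (40.5%), against 16.6% and 19.5%. With Dex+E2 they were 2 upward (4.76%) and 16 downward (38.1%), against 17.3% and 15.3%. By this count the list was above the background share downward with E2 and Dex+E2, and below it upward with Dex and Dex+E2. The downward count with Dex and the upward count with E2 lay closer to the background. Most of the list lay in the top 25% of level. Of the 4549 genes there, 915 were separated downward and 670 upward with Dex. With E2 the numbers were 856 and 1100, and with Dex+E2 825 and 495. The upward genes of the list with E2, no larger a share than among all genes, were Mki67, Cdk1, Cenpe, Cenpf, Ttk and Mad2l1. The downward ones with E2 included Mcm2, Mcm3, Mcm5, Mcm7, Cdc6, Cdt1, Gins2, Rrm1, Tk1, Ccne1 and E2f1 of the replication side, and Aurkb, Cdc20, Plk1, Kif20a, Foxm1 and Tpx2 of the mitotic side. These splits were read after the values were seen and have no test of their own.

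The list as a whole leaned below the untreated level. The difference was below 0 for 34 of 42 genes with Dex, 28 with E2 and 33 with Dex+E2, where 48.3%, 54.2% and 47.2% of all genes were. Of the genes in the top 25% of level, which held most of the list, 54.3%, 45.7% and 58.8% were. The list's median difference was -0.05, -0.04 and -0.09. That of all genes was 0.0041, -0.011 and 0.0080, and that of the top 25% was -0.0085, 0.010 and -0.016. With Dex and Dex+E2 the top 25% leaned the same way as the list, but by less. The list's Dex median was -0.0057 without Dex replicate 2. Its E2 median was -0.015 without E2 replicate 2 and -0.084 without E2 replicate 1. Shifts of this size were also seen between the 2 arrays of a group. Replicate 1 was above replicate 2 for 34 of 42 genes in Dex, 31 in E2 and 40 in Dex+E2, with median gaps of 0.0913, 0.0536 and 0.123, and for 18 of 42 in Untreated, with a gap of -0.0207. Of all genes, 50.9%, 49.4%, 44.7% and 49.3% had the higher value on replicate 1 of those groups.

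A single array was low for the list and for other cell cycle genes. Dex+E2 replicate 2 held the lowest of the 8 values for 22 of the 42 genes (52.4%) and the highest for 0. Of all genes 18.7% were lowest there and 25.3% highest, and of the 4549 genes in the top 25% of level 24.6% were lowest and 11.3% highest. It was also lowest for 20 of 34 other replication genes (58.8%), 23 of 46 other mitosis genes and 12 of 25 genes of G1 entry (48.0%), from lists described below. The list's median deviation from each gene's own mean was -0.12 on that array, 0.01 on Dex+E2 replicate 1, and 0.04 and 0.05 on the untreated arrays. Without Dex+E2 replicate 2 the list's median difference between Dex+E2 and Untreated was -0.03, and without Dex+E2 replicate 1 it was -0.14. The part of this array in the Dex+E2 values of the list, beyond that comparison, was not tested.

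**Figure D3:**
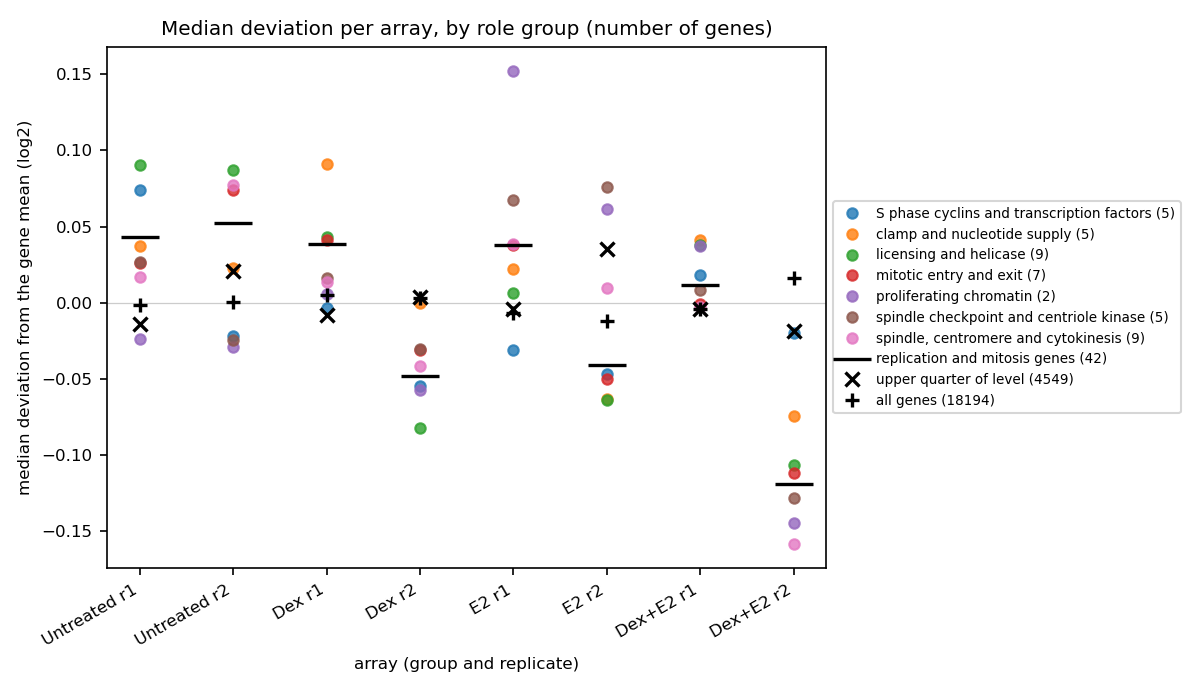
Median deviation from each gene's mean over the 8 arrays (log2, y axis) on each array (x axis), for the role groups (points), the whole list of 42 genes (horizontal bars), the 4549 genes in the top 25% of level (x) and all genes (+). The list lies at -0.12 on Dex+E2 replicate 2 and at 0.04 and 0.05 on the untreated arrays, while all genes stay near 0.

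**Figure D4:**
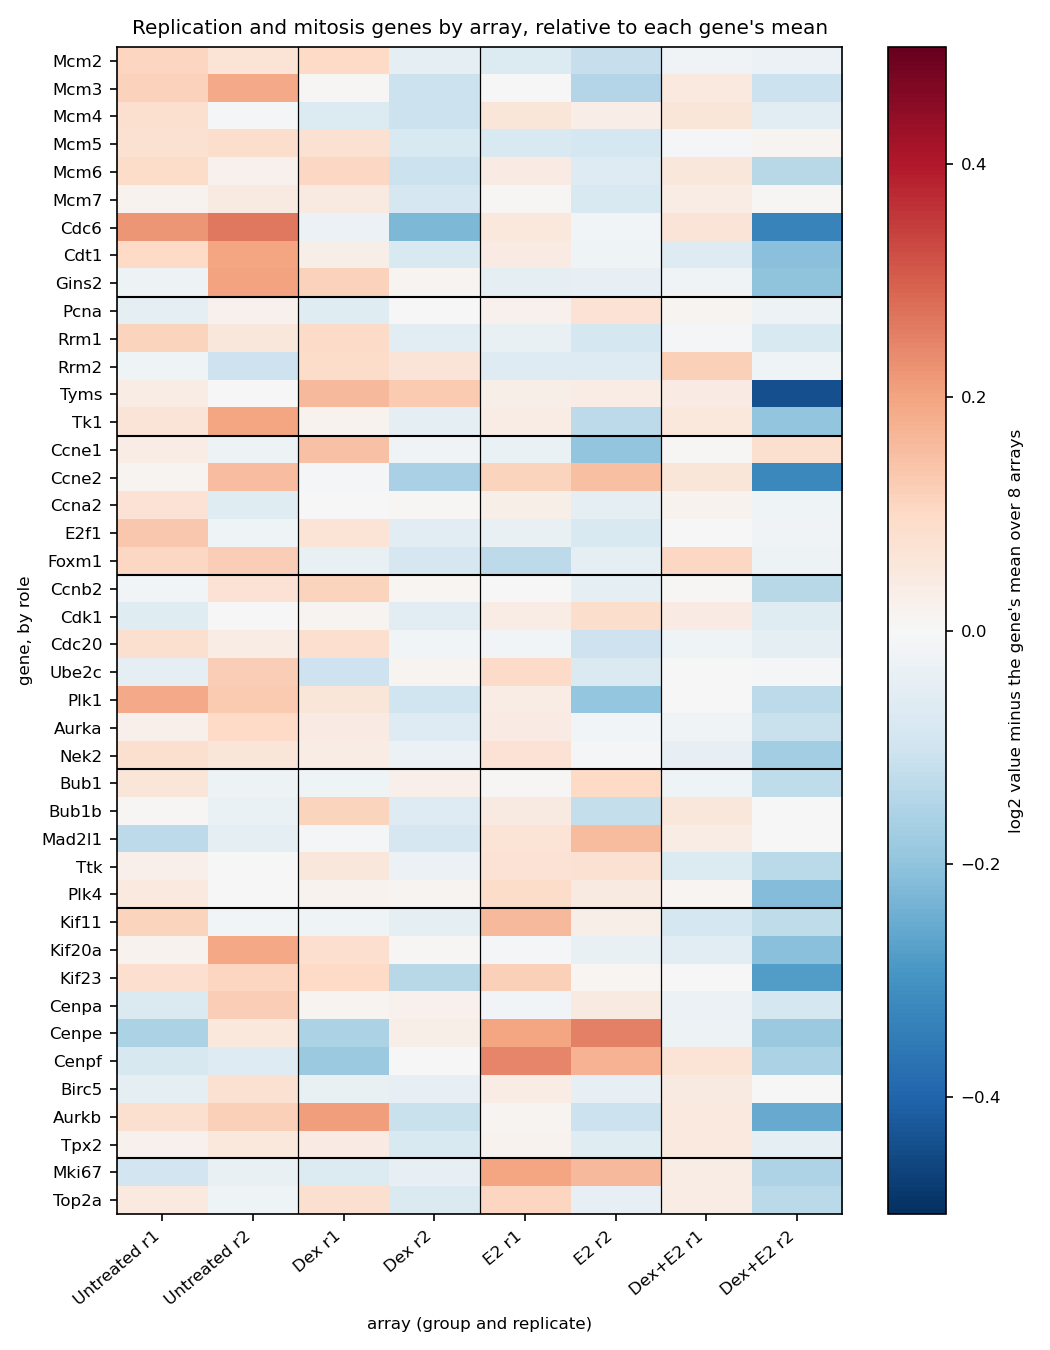
Log2 value minus the gene's mean over 8 arrays (colour) for the 42 genes (rows, by role) on each array (columns). Cdc6 is highest on both untreated arrays, Mki67, Cenpe and Cenpf are highest on both E2 arrays, and Tyms is far below its mean on Dex+E2 replicate 2 alone.

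Other genes of the cell cycle were taken from 3 further lists. Of 34 measured replication genes (Orc and polymerase subunits among them) and 46 measured mitosis genes, limma called 0 in every comparison. At an unadjusted p under 0.05 it had 0, 0 and 1 of the replication genes with Dex, E2 and Dex+E2. For the mitosis genes the counts were 1, 4 and 3 (2.17%, 8.70% and 6.52%), where 6.28%, 6.18% and 8.45% of all genes were under it. Of 25 genes of G1 entry and the pocket protein network, 1 was called for Dex+E2 and 2 for the mean Dex effect, all lower, against 0.654% and 1.14% of all genes called lower. Myc, the growth-promoting transcription factor, gave 9.80 and 9.99 untreated, 9.45 and 9.17 with Dex, 9.80 and 9.40 with E2, and 9.22 and 8.60 with both. It fell by 0.99 ± 0.196 with both hormones (adjusted p = 0.0361) and its mean Dex effect was -0.64 ± 0.138 (adjusted p = 0.0435). Of the 4 Myc arrays with Dex, 3 lay below all 4 without it, and Dex replicate 1 was just above E2 replicate 2. The Dex+E2 call was lost (adjusted p in limma in brackets) without Untreated replicate 1 (0.163), Untreated replicate 2 (0.385), Dex replicate 1 or 2 (0.0684 each) or Dex+E2 replicate 2 (0.183, at -0.67). The mean Dex call for Myc was lost without Untreated replicate 1 (0.113) or 2 (0.232), Dex replicate 1 (0.101) or 2 (0.209), E2 replicate 1 (0.141) or Dex+E2 replicate 2 (0.0699).

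E2f2, an activator E2F of the S phase programme, gave 7.54 and 7.77 untreated, 7.32 and 7.21 with Dex, 7.63 and 7.50 with E2, and 7.34 and 7.26 with both. The 4 arrays with Dex were below the 4 without it, and the mean Dex effect was -0.33 ± 0.0705 (adjusted p = 0.0426). That call was lost without Untreated replicate 2 (adjusted p = 0.191), Dex replicate 1 (0.123) or 2 (0.206), E2 replicate 1 (0.152) or 2 (0.0728) or Dex+E2 replicate 2 (0.115).

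Most genes of the list have more than 1 probe set, and these did not always point one way. Across 99 probe sets of the 42 genes, limma fitted on the 34958 probe sets with 1 symbol called 0 in every comparison. Of all 34958, it called 1.14%, 0.0544% and 1.06% for Dex, E2 and Dex+E2. Of the 99, 6, 13 and 8 were under an unadjusted 0.05 in those comparisons. The share over all probe sets was not counted, so these counts cannot be read as above or below the background. Probe sets of the same gene are not separate members of the list. Of the 30 genes with several probe sets, all sets of a gene had the same sign for 17 with Dex, 20 with E2 and 21 with Dex+E2. The smallest adjusted p, 0.0838, belonged to a dim second probe set of Aurka (Aurora A, the spindle pole kinase), at -0.56 ± 0.12 with Dex+E2.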

How the data were processed

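Gene expression was measured in 8 Affymetrix arrays of 7438 cells, grouped by sample title. Per the submitters' processing notes, the authors used RMA in Affymetrix Expression Console; log2 values were deposited for 45101 probe sets. Versions are not given in the sources used here, and array signals are not counts, so precision rests on the number of arrays. Of the probe sets, 34958 have 1 gene symbol in the platform annotation, 932 several, and 9211 are not listed; 34754 of the 34958 matched the RefSeq table by Entrez identifier. Per gene, the probe set with the highest mean was kept, giving 18194 genes.

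A limma 3.58.1 model (R 4.3.3) of the 4 group means, with eBayes, gave 6 comparisons: each treatment against Untreated, the mean Dex and mean E2 effects, and their interaction. It was checked on simulated data. Named genes were any past an adjusted p of 0.05, the 2 with the smallest unadjusted p per role group, 10 standard cell cycle genes, and those with the widest and narrowest ranges. Members and lists were chosen with earlier results of these data known. Alternatives were the probe set rule, a filter on low values, quantile normalization, centring of arrays on their median, trended and robust eBayes, a replicate block, fits on only the groups compared, and leaving out each array. Promoters came from the RefSeq table for GRCm38.p6. A background correction alternative was not run, since scanner files were not used here.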

Additional observations from a re-analysis of the deposited data

How the results depend on the processing

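No gene of the list passed an adjusted p of 0.05 in any of the 6 comparisons under 15 of the 16 alternatives. Leaving out single arrays gave 0 to 2 called genes for Dex+E2 and for the mean Dex effect, and 0 otherwise. The 2 came without Dex+E2 replicate 1, where the lone Dex+E2 array is assumed to vary like the other groups. For Dex+E2 they were Cdc6 (-0.57) and Tyms (-0.46), and for the mean Dex effect Cdc6 (-0.36, adjusted p = 0.0206) and Ccne2 (-0.31, adjusted p = 0.0376). Over all genes the counts called were 267, 19, 265, 404, 35 and 1 in the order Dex, E2, Dex+E2, mean Dex effect, mean E2 effect and interaction. With single arrays left out they ran from 131 to 325 for Dex, 2 to 37 for E2, 114 to 608 for Dex+E2, 239 to 840 for the mean Dex effect, 2 to 90 for the mean E2 effect and 0 to 20 for the interaction. Trended and robust eBayes called 35 for E2, 63 for the mean E2 effect and 4 for the interaction, quantile normalization 2 for the interaction, and a fit on only the 2 groups compared 171 for Dex+E2; the cause was not tested. The Tyms difference with both hormones was 0.022 without Dex+E2 replicate 2. Over the settings the list's median difference ran from -0.09 to -0.0057 for Dex, -0.08 to -0.01 for E2 and -0.14 to -0.03 for Dex+E2. These moves were smaller than 0.0683, the replicate SD of the list's median level. That SD is larger than the main medians with Dex (-0.05) and E2 (-0.04), so it cannot show that they were stable. Deviations of arrays with the same replicate number correlated at 0.190 to 0.347 among Untreated, Dex and E2. Between Dex+E2 and each of those groups they correlated at -0.260 to -0.070. The replicate numbers thus did not pair all 4 groups, and a component shared by Untreated, Dex and E2 was not tested. A fit with the replicate block called 0 genes of the list and 265, 17, 251, 361, 31 and 1 of all genes. The Myc call for Dex+E2 was also lost with only the 2 groups in the fit (adjusted p = 0.0739), and its mean Dex call with every probe set tested (0.0557). The E2f2 call was lost with the block (0.0795), every probe set (0.0594) and quantile normalization (0.0520).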

Other observations

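Beyond the genes described above, several neighbours of the list had values a reader may wish to look at, each chosen after its values were seen. Kif18a, a kinesin that shortens kinetochore microtubules, had a mean Dex effect of -0.41 ± 0.115 in limma (adjusted p = 0.142). E2f8, an atypical repressor E2F, differed by -0.32 ± 0.0816 with Dex (adjusted p = 0.131). E2f6, a Polycomb-linked repressor E2F, differed by 0.41 ± 0.0878 with both hormones (adjusted p = 0.0578). Orc1, the licensing subunit of the origin recognition complex, differed by -0.44 ± 0.135 with both hormones (adjusted p = 0.266). When all probe sets of E2f2 were averaged instead of taking the brightest, E2f2 was -0.57 with Dex (adjusted p = 0.00298) and -0.53 with both hormones (adjusted p = 0.00528).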
